A study of Mus musculus with 16 samples.

Results

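The nuclear genes for the subunits of oxidative phosphorylation were followed in BetaTC6 cells, an established mouse β-cell line derived from an insulinoma on a C57BL/6 background. Members were the genes of the count table whose symbols begin with Ndufa, Ndufb, Ndufc, Ndufs, Ndufv, Uqcr, Cox4i, Cox5, Cox6, Cox7, Cox8 or Atp5, without the Ndufaf assembly factors, at a mean raw count of at least 10 over the 16 libraries. Of 23329 genes listed, 81 carried such a symbol and 74 reached the minimum. By symbol, 37 belonged to complex I, 8 to complex III, 12 to complex IV and 17 to complex V. The 7 genes below the minimum were Cox4i2, Cox6b2, Cox8b, Cox8c, Cox7a1, Cox7b2 and Ndufa4l2. All 74 members also passed the low-count filter of the test, so no member was left untested.

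RNA came from a wild-type line and from a line labelled P2ry1 knockout, which lacks a purinergic receptor by its label. Plates of each line had grown for 3 days in DMEM with 15% fetal bovine serum. They were kept in Krebs Ringer buffer without glucose and then received 20 mM glucose for 30 min, either with DMSO, the vehicle, or with ivermectin, an antiparasitic drug that acts on ligand-gated channels. All 4 groups (wild-type vehicle, wild-type ivermectin, knockout-labelled vehicle, knockout-labelled ivermectin) thus shared the glucose stimulus, and each held 4 libraries. The labels used here give neither the ivermectin concentration nor the number of clones behind the line labelled knockout, and they do not say whether replicates were separate cultures. The p-values therefore measure the spread between these libraries, which may be technical, and a difference between the lines cannot be told apart from a difference between clones.

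Oxidative phosphorylation takes place in the inner mitochondrial membrane. Complex I takes electrons from NADH, complex III passes them from ubiquinol to cytochrome c, complex IV hands them to oxygen, and the proton gradient that these steps build drives ATP synthesis by complex V. In β-cells, ATP made from glucose closes ATP-sensitive potassium channels, and the calcium entry that follows releases insulin. Each of these complexes mixes a few subunits that carry out the catalysis with many small accessory subunits. A part of the subunits is encoded in the mitochondrial genome. No gene of the mitochondrial genome was listed in the tables used here, so only the nuclear part of each complex is described.

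Library totals ran from 893288 to 2013475 counts, a 2.25-fold range, and the 4 lowest totals were the wild-type vehicle libraries. P2ry1 was at 85.4 to 106 CPM (counts relative to a TMM-adjusted library total) in wild-type libraries and at 72.8 to 94.8 CPM in libraries labelled knockout. In edgeR's quasi-likelihood test its log2 difference was -0.17 (adjusted p = 0.246) with vehicle and -0.11 (adjusted p = 0.394) with ivermectin. The targeted transcript thus did not separate the labels, and a deletion that leaves the transcript in place would not be seen in its count. The β-cell list (12 genes, Ins1 and Ins2 included) summed to between 34206 and 45781 CPM in every library. Ins2 weighed most in that sum, and single genes of the list went different ways. With vehicle Iapp averaged 5492 CPM in wild type and 7206 in the line labelled knockout, Pdx1 319 and 262, and Nkx6-1 238 and 207. A list of 5 genes of other islet cells separated the lines, at 473 to 552 CPM in wild-type libraries and 222 to 277 CPM in those labelled knockout. Within it Sst, the hormone of delta cells, was at a mean of 218 CPM with vehicle in wild type and 15.4 in the line labelled knockout, and Gcg, the hormone of alpha cells, at 297 and 216. The part of these marker differences in the results on the subunit genes was not tested, and in bulk RNA fewer cells of a type cannot be told apart from less RNA per cell. All 17 genes of a hepatocyte list had counts, and their sum was 1299 to 2785 CPM in wild-type vehicle libraries against 762 to 1197 CPM in the other groups. In knockout-labelled vehicle libraries the sum was 805 to 1075 CPM, of which Alb averaged 38.9 CPM and Apoa1 5.39. Most of the sum there thus came from other genes of the list, and whether hepatocytes were its source was not tested. Skeletal and heart muscle genes summed to 20.2 to 31.0 CPM in wild-type vehicle and 3.23 to 24.5 CPM elsewhere, with Myh1, Mb, Actc1 and Tnnt2 at 0 in all libraries. In the testis list Prm1, Prm2, Tnp1 and Akap4 were at 0 throughout.

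The upstream sequences of 4 members are shown: Uqcr10, Cox7c and Cox6a1, because they were called higher in the line labelled knockout with each treatment, and Atp5o, a stalk subunit of complex V, for contrast, because its values there were lower without passing the test. Each run is the 150 bases before the annotated transcript start, 5′ to 3′ on the gene's strand, from RefSeq on GRCm38.p6. Capitals mark matches to ACTACANNT, the start of the element read by the factors ZNF143 and THAP11, or to CCGGAAG, the core site of ETS factors such as GABPA, on either strand.
Uqcr10 (chr11:4704345-4704494, minus strand): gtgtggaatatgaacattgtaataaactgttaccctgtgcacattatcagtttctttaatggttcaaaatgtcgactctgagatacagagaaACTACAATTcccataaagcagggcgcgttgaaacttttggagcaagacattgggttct
Cox7c (chr13:86046796-86046945, minus strand): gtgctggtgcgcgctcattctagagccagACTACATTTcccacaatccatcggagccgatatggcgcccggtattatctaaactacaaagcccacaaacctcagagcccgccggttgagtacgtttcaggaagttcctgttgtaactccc
Cox6a1 (chr5:115348959-115349108, minus strand): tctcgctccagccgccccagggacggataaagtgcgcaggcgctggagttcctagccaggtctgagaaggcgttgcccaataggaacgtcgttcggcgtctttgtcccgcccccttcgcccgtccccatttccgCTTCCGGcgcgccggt
Atp5o (chr16:91931631-91931780, minus strand): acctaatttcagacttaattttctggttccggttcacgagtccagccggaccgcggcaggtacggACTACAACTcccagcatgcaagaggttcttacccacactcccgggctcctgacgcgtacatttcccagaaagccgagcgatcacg

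The printed ACTACANNT match lay 58 to 50 bases before the start of Uqcr10, which had another on the other strand at 228 to 220 bases, outside the printed run. The match lay 121 to 113 bases before the start of Cox7c and 85 to 77 bases before that of Atp5o. The same letters were thus found in front of genes with higher and with lower values. This motif was added after the sequences had been read, so its share among members is not independent of them. Over windows of 300 bases (250 before to 50 after the start), 63 of the 74 members had an entry, and 7 of them (11.1%) held the motif, against 5.98% of 7762 other tested genes and 4.38% of 26962 other genes in the table. The 7 were Uqcr10, Cox7c, Ndufa3 and Atp5d, all 4 called higher in the line labelled knockout with vehicle and with ivermectin, and Atp5o, Cox7b and Ndufv1, which were called in neither.
The CGCATGCG core of the site for NRF1, a factor known to control respiratory genes, was in 8 member windows (12.7%), against 4.41% of the other tested genes and 1.89% of all other genes in the table. The AAGATGGCG site of YY1 was in 7 (11.1%) against 3.49% and 1.47%, CCGGAAG in 13 (20.6%) against 19.6% and 9.09%, and the TCAAGGTCA site of estrogen-related receptors in 1 (1.59%) against 0.271% and 0.404%. Of the 22 members with an entry that were called higher with vehicle and with ivermectin, 3 held the NRF1 core, 5 the ETS site, 3 the YY1 site and none the TCAAGGTCA site. Of the 33 called in neither, 4, 7, 3 and 1 did. All motifs were searched on both strands, and a match is only a run of letters. Cox6a1 was the shown gene with an NRF1 match, 161 to 154 bases before its start and outside the printed bases.

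The level of the subunit genes in these cells is given first, on the TPM scale, which allows for transcript length. Complex IV genes stood highest, with a median over members of 934 TPM, followed by complex V at 687, complex III at 587 and complex I at 377. In complex I the range ran from Ndufa11 at 49.7 TPM to Ndufb8, an accessory subunit of the membrane arm, at 1012. In complex III it ran from Uqcrc1, a core protein, at 113 TPM to Uqcrq at 1546. Cox6a1 was the highest of complex IV and of all members at 2808 TPM, and Cox6a2 was the lowest of that complex at 32.6. Complex V ran from Atp5s at 9.3 TPM to Atp5j2, a small membrane subunit, at 1879. Atp5s and its relative Atp5sl (13.9 TPM) match the complex V symbols but code for no ring, head or stalk subunit.

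The paired tissue forms of the subunits were expressed in the general form with few exceptions. Cox4i1 took all of the Cox4i signal, and Cox4i2, known from hypoxic lung, had a count of 0 in all 16 libraries. Cox6b2, Cox8b and Cox8c also had no count in any library; at these depths a count of 0 allows up to 1.49 to 3.36 CPM, taking 3 counts as the limit and counting error only. Cox6a1, the form of most tissues, made up 98.7% ± 0.447 (SD, n = 4) of Cox6a TPM in the wild-type vehicle group, and the muscle form Cox6a2 the rest, with counts in all 16 libraries. Cox7a split between Cox7a2 at 47.1% and Cox7a2l, which is known for supercomplex assembly, at 48.8%, with the muscle form Cox7a1 at 4.02% on a total of 80 counts over all libraries. Ndufa4 stood against Ndufa4l2 with 10 counts in all, and Cox7b against Cox7b2 with 4.

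Summed over each complex, the subunit genes were higher in the line labelled knockout, most in complexes III and IV and least in complex V. All 74 members summed to 13570 ± 620.5 CPM (SD, n = 4) with vehicle in wild type and to 15266 ± 1067 in the line labelled knockout, a ratio of 1.13. With ivermectin the sums were 14117 ± 947.7 and 16377 ± 1013, a ratio of 1.16. With vehicle the ratio was 1.12 for complex I, 1.21 for complex III, 1.21 for complex IV and 1.07 for complex V. With ivermectin it was 1.17, 1.26, 1.23 and 1.09 in the same order. In complex III the sums of wild-type vehicle libraries were 1276, 1138, 1154 and 1167 CPM, and those of knockout-labelled vehicle libraries 1508, 1270, 1454 and 1512. Replicate 2 of the knockout-labelled vehicle group lay inside the wild-type range by its sum for complex III, and the other 3 lay above it. With ivermectin the complex III sums were 1115, 1239, 1240 and 1336 CPM in wild type and 1553, 1427, 1670 and 1580 in the line labelled knockout, without overlap. In complex V the groups overlapped with vehicle (5154 to 5521 against 5275 to 5894 CPM) and with ivermectin (5168 to 5872 against 5683 to 6483 CPM). The sums weigh abundant genes most. Gene by gene, the median log2 difference with vehicle was 0.16 in complex I, 0.13 in complex III, 0.21 in complex IV and 0.13 in complex V. With ivermectin it was 0.23, 0.27, 0.21 and 0.15, so the median of complex III was level with that of complex V with vehicle and the highest with ivermectin. With an offset for transcript length and GC content, added after seeing the data, the medians with vehicle were 0.068, 0.067, 0.091 and 0.054. Those with ivermectin were then 0.041, 0.12, -0.020 and -0.034, so complexes IV and V turned direction. These sums describe the members; no test was made on them.

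**Figure D1:**
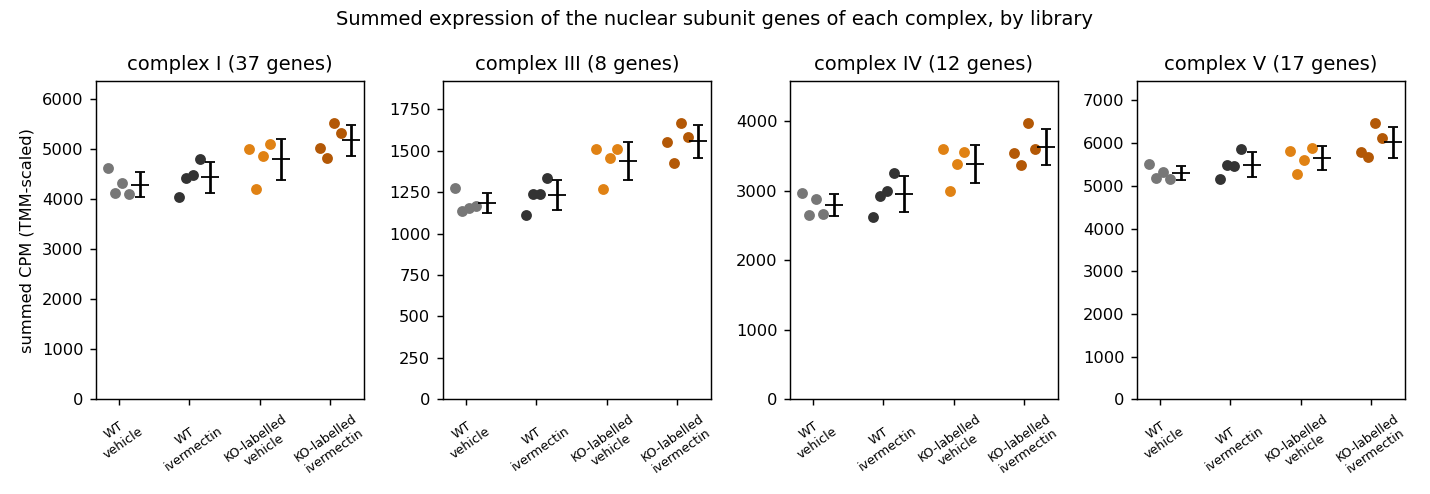
Summed CPM of the subunit genes of complexes I, III, IV and V (y axes, from 0) in each of the 4 groups (x axis). Points are libraries and black bars the group mean ± SD (n = 4). Complex I, III and IV sums of the ivermectin libraries labelled knockout lie above those of the wild-type ivermectin libraries, and replicate 2 of the knockout-labelled vehicle group is the lowest of its group in every complex.

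Gene by gene, the comparison of the lines with vehicle called 25 of 74 members higher and none lower in edgeR's quasi-likelihood test at an adjusted p of 0.05, where 9.9% of all 10822 tested genes were called higher and 10.8% lower. The median log2 difference of the members was 0.16, and that of all tested genes was 0.00 after rounding. By complex, 12 of 37 members of complex I were called, 3 of 8 of complex III, 6 of 12 of complex IV and 4 of 17 of complex V. The groups did not overlap for 15 members with higher values (10.7% of all tested genes). The count was 15 in DESeq2 and 5 against a 1.2-fold threshold. It also rested in part on single libraries, being 14 without wild-type vehicle replicate 2 and 16 (15 higher, 1 lower) without knockout-labelled vehicle replicate 4.
With ivermectin 34 of 74 members were called higher and none lower, against 14% and 13.9% of all tested genes, with a median log2 difference of 0.22. Against a 1.2-fold threshold 9 were called. The calls covered 17 members of complex I, 5 of complex III, 7 of complex IV and 5 of complex V, and 25 members had groups that did not overlap (12.5% of all tested genes). The vehicle and ivermectin comparisons share no library. Of the members called higher, 23 were called in each, which is 92% of the vehicle calls and 67.7% of the ivermectin calls. Over all tested genes 792 were called higher in each, 73.9% and 52.4% of the calls. In all, 38 members were called in neither.

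**Figure D2:**
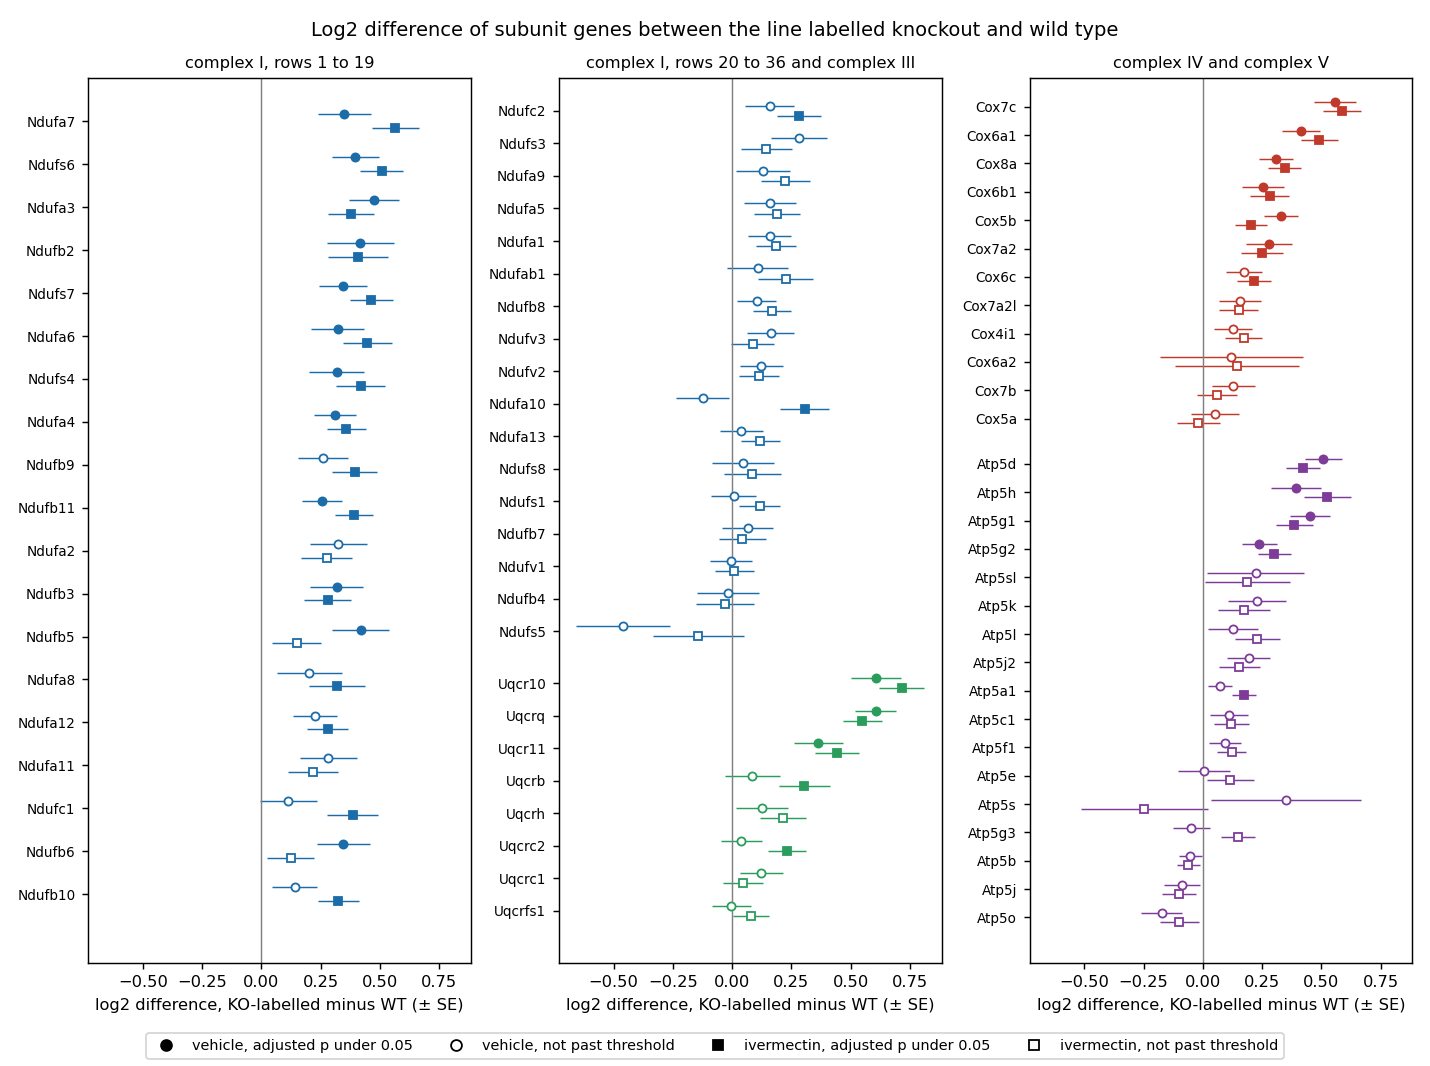
Log2 difference (x axis, libraries labelled knockout minus wild type, ± SE) of the subunit genes reported singly (y axis), ordered within a complex by the mean of both comparisons. Circles are vehicle, squares ivermectin, and filled symbols passed the adjusted p of 0.05. Uqcr10, Cox7c and Atp5d lie farthest to the right of their complexes in at least one comparison, and no filled symbol lies to the left of 0.

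In complex I most calls fell on accessory subunits, which are most of its genes. The core is the set of 7 nuclear subunits that hold or surround the flavin and iron-sulfur clusters, and 1 of them was called in each comparison, Ndufs7. Of the 30 accessory members, 11 were called with vehicle and 16 with ivermectin. Ndufa4, called in each comparison, is among the 30 by its symbol alone, and its place in complex I was not checked. The difference between core and accessory members was not tested. The median log2 difference was 0.05 and 0.11 for the core, and 0.21 and 0.28 for the accessory members. The core genes are longer, with a median transcript of 1472 bases against 554.5. With an offset for length and GC content, added after seeing the data, the core medians were 0.058 and -0.036. Those of the accessory members were 0.083 and 0.056, and 2 and 4 of these 30 were then called higher. Of all tested genes 10.8% and 14.1% were called higher with the offset.
Ndufs7, which holds the last iron-sulfur cluster before ubiquinone, was at 93.3, 75.3, 82.3 and 94.7 CPM in wild-type vehicle libraries and at 109, 103, 112 and 115 in those labelled knockout. With ivermectin it was at 88.0, 76.2, 97.4 and 89.6 CPM in wild type and at 119, 102, 134 and 129 in the line labelled knockout. Neither pair of groups overlapped. Its log2 difference was 0.34 ± 0.10 (SE, adjusted p = 0.0140 by edgeR) with vehicle and 0.46 ± 0.09 (adjusted p = 0.000217) with ivermectin. Among the other core genes, Ndufs1 and Ndufv1, which belong to the NADH-oxidising module, did not pass in either comparison.
Ndufa3, a small accessory subunit, had 91.0, 71.4, 69.4 and 74.3 CPM in wild-type vehicle libraries against 105, 93.3, 119 and 106 in those labelled knockout. The lowest knockout-labelled library was just above the highest wild-type one, and the log2 difference was 0.47 ± 0.11 (SE, edgeR adjusted p = 0.00111). Ndufb5, of the membrane arm, was at 62.9, 63.6, 74.8 and 70.6 CPM in wild-type vehicle and at 92.9, 86.8, 88.3 and 96.4 in knockout-labelled vehicle, a log2 difference of 0.42 ± 0.12 (edgeR adjusted p = 0.0105). Ndufb5 was not called with ivermectin, where wild-type libraries were at 82.5, 75.6, 88.2 and 117 CPM and libraries labelled knockout at 104, 96.5, 110 and 85.4. Its vehicle groups were apart and its ivermectin groups overlapped; the interaction was not past the threshold for any member.
The largest complex I differences with ivermectin were in Ndufa7, Ndufs6 and Ndufs7. Ndufa7, an accessory subunit of the peripheral arm, was at 85.0, 98.7, 99.4 and 80.4 CPM in wild-type ivermectin libraries and at 125, 118, 161 and 137 in those labelled knockout. Its log2 difference was 0.57 ± 0.10 (SE, edgeR adjusted p = 5.23e-05), and the groups were apart. Ndufs6, needed for the NADH-oxidising module, was at 82.5, 80.6, 76.9 and 83.4 CPM against 118, 106, 122 and 114, also apart, with a log2 difference of 0.51 ± 0.09 (edgeR adjusted p = 5.79e-05). Ndufs4, an accessory subunit whose loss is a known cause of complex I disease, was called in each treatment, at 0.32 ± 0.12 (edgeR adjusted p = 0.0485) with vehicle and 0.42 ± 0.10 (adjusted p = 0.00210) with ivermectin. The vehicle call of Ndufs4 was close to the threshold and its vehicle groups overlapped. Ndufb8, the most abundant complex I transcript, did not pass, at 0.10 ± 0.08 (edgeR adjusted p = 0.405) and 0.17 ± 0.08 (adjusted p = 0.107).

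Ndufs5 had the lowest log2 difference of complex I with vehicle, -0.46 ± 0.20 (SE, edgeR adjusted p = 0.0944), and the least stable counts. Its levels were 69.7, 96.8, 93.0 and 98.5 CPM in wild-type vehicle libraries and 89.4, 48.1, 35.4 and 92.2 in those labelled knockout, a coefficient of variation of 43.4% in the second group. The neighbour in sequence is BC002163, which RefSeq names as the Ndufs5 pseudogene, and it stood at 43.0, 70.7, 85.8 and 28.1 CPM in the same knockout-labelled libraries. Where Ndufs5 was low the pseudogene was high, and their sum was 132, 119, 121 and 120 CPM, a coefficient of variation of 5.06%. In the other groups that of the sum was 13.9% (wild-type vehicle), 6.90% (wild-type ivermectin) and 12.1% (knockout-labelled ivermectin), against 15.0%, 15.9% and 25.2% for Ndufs5 alone, so in wild-type vehicle the sum was hardly steadier. With the length and GC offset Ndufs5 alone was called lower with vehicle. Tested as a sum without it, the log2 difference was -0.13 ± 0.10 (SE, edgeR adjusted p = 0.348) with vehicle and -0.08 ± 0.09 (adjusted p = 0.560) with ivermectin. Counts of Ndufs5 alone are therefore uncertain. RefSeq names a pseudogene after 10 members, among them Cox5b, Cox7c, Uqcrh and Atp5k, and whether reads were divided between any of these pairs was not tested.

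In complex III most calls fell on the small subunits. Of 5 small subunits, 3 were called higher with vehicle and 4 with ivermectin. Of the core proteins Uqcrc1 and Uqcrc2 and the Rieske protein Uqcrfs1, none was called with vehicle and 1, Uqcrc2, with ivermectin. The groups of subunits also differ in length, from 436 bases for Uqcr11 to 1882 for Uqcrc2, and the difference between them was not tested.
Uqcr10, a small subunit beside cytochrome c1 (gene at chr11:4701968-4704344), was at 115, 112, 85.5 and 99.4 CPM in wild-type vehicle libraries and at 177, 125, 156 and 169 in those labelled knockout. With ivermectin it was at 99.0, 94.3, 117 and 109 CPM in wild type and at 168, 156, 184 and 175 in the line labelled knockout. Every knockout-labelled library was above every wild-type library. The log2 difference was 0.61 ± 0.11 (SE, edgeR adjusted p = 4.1e-05) with vehicle and 0.72 ± 0.10 (adjusted p = 4.06e-07) with ivermectin. Without an offset for length, these were the largest of any member in each comparison. With the length and GC offset, Uqcrq (0.43) and Cox7c (0.40) stood above Uqcr10 (0.39) with vehicle.
Uqcrq, a small ubiquinone-binding subunit (gene at chr11:53427922-53430831), was at 262, 235, 235 and 248 CPM in wild-type vehicle libraries and at 395, 303, 375 and 417 in those labelled knockout. With ivermectin the levels were 230, 274, 267 and 289 CPM against 390, 334, 436 and 385. Again the groups were apart in each treatment. Its log2 difference was 0.61 ± 0.09 (SE, edgeR adjusted p = 2.45e-06) and 0.55 ± 0.08 (adjusted p = 3.4e-06). Uqcr11 was at 114 to 172 CPM in wild-type ivermectin libraries and at 173 to 208 in those labelled knockout, a log2 difference of 0.44 ± 0.09 (edgeR adjusted p = 0.000489). Uqcrh, the acidic hinge protein between cytochrome c1 and cytochrome c, did not pass in either comparison.

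In complex IV 6 members were called with vehicle and 7 with ivermectin, and the 6 were among the 7. They were Cox5b, Cox6a1, Cox6b1, Cox7a2, Cox7c and Cox8a, with Cox6c added in the ivermectin comparison. With the length and GC offset only Cox6a1 and Cox7c stayed called higher, in each comparison. Cox6c with ivermectin was then at -0.054 (edgeR adjusted p = 0.550), with its direction turned. Cox4i1 and Cox5a, the regulatory subunits next to the catalytic core, were not called in either; with the length and GC offset Cox5a was called lower with ivermectin.
Cox7c, a single-helix subunit (gene at chr13:86044798-86046795), was at 218, 196, 213 and 208 CPM in wild-type vehicle libraries and at 335, 268, 326 and 299 in those labelled knockout. With ivermectin it was at 197, 231, 257 and 285 CPM in wild type and at 369, 323, 389 and 364 in the line labelled knockout. The groups were apart in each treatment, although the wild-type ivermectin libraries spread widely. The log2 difference was 0.56 ± 0.09 (SE, edgeR adjusted p = 1.22e-05) and 0.59 ± 0.08 (adjusted p = 9.25e-07).
Cox6a1 (gene at chr5:115345652-115348958), the most abundant member, was at 563, 506, 531 and 498 CPM in wild-type vehicle libraries and at 761, 613, 677 and 744 in those labelled knockout. With ivermectin the levels were 480, 550, 564 and 654 CPM against 737, 709, 926 and 781. Both pairs of groups were apart. The log2 difference was 0.41 ± 0.08 (SE, edgeR adjusted p = 0.000168) and 0.49 ± 0.08 (adjusted p = 6.74e-06). Cox5b, which binds zinc on the matrix side, differed by 0.33 ± 0.07 (edgeR adjusted p = 0.000838) with vehicle, from 187 to 208 CPM in wild type to 236 to 272. Cox8a, the smallest subunit, differed by 0.34 ± 0.07 (edgeR adjusted p = 0.000322) with ivermectin, from 377 to 410 CPM to 487 to 511.

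Without an offset for length, complex V had the lowest share of members called in each comparison. Atp5d, Atp5g1, Atp5g2 and Atp5h were called higher in each comparison, and Atp5a1, the α subunit of the F1 head, in the ivermectin comparison alone. The 3 small membrane subunits Atp5j2, Atp5k and Atp5l were not called.
Atp5d, the δ subunit of the F1 stalk, was at 202, 189, 193 and 193 CPM in wild-type vehicle libraries and at 274, 248, 276 and 308 in those labelled knockout. With ivermectin it was at 221, 215, 233 and 234 CPM in wild type and at 285, 272, 343 and 309 in the line labelled knockout. The groups were apart in each treatment. The log2 difference was 0.51 ± 0.08 (SE, edgeR adjusted p = 6.42e-06) and 0.42 ± 0.07 (adjusted p = 2.64e-05). Its partner Atp5b, the catalytic β subunit and the most highly counted of the head, lay at 1395 to 1558 CPM in all vehicle libraries, with groups that overlapped and no call; with the length and GC offset it was called lower with ivermectin.
Atp5h, the d subunit of the peripheral stalk, was at 330, 252, 238 and 218 CPM in wild-type vehicle libraries and at 369, 294, 333 and 362 in those labelled knockout. Its log2 difference was 0.39 ± 0.11 (SE, edgeR adjusted p = 0.00604) with vehicle and 0.53 ± 0.10 (adjusted p = 9.78e-05) with ivermectin, but wild-type replicate 1 with vehicle and replicate 4 with ivermectin lay inside the other line's range. DESeq2 gave an adjusted p of 0.0645 for Atp5h with vehicle.
Another pair of stalk subunits had values on the other side of 0. Atp5o, which joins the stalk to the head, was at 224, 191, 235 and 202 CPM in wild-type vehicle libraries and at 207, 171, 165 and 212 in those labelled knockout, overlapping. Atp5j was at 206, 183, 208 and 184 CPM against 191, 170, 180 and 192, also overlapping. Their log2 differences were -0.17 ± 0.09 (SE, edgeR adjusted p = 0.160) and -0.09 ± 0.08 (adjusted p = 0.457), and with ivermectin -0.10 ± 0.08 (adjusted p = 0.392) and -0.10 ± 0.07 (adjusted p = 0.316).

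The c-ring, which turns as protons pass, is built from 1 mature protein made by 3 genes, Atp5g1, Atp5g2 and Atp5g3, and each gene's share of their sum is given for both lines. Of their summed TPM, Atp5g1 gave 25.2% ± 1.23 (SD, n = 4) with vehicle in wild type and 30.3% ± 2.23 in the line labelled knockout. The ranges, 23.8% to 26.7% and 27.8% to 32.3%, did not overlap. Atp5g3 gave 42.7% (40.4% to 45.0%) in wild-type vehicle and 36.4% (33.5% to 38.4%) in the other line. With ivermectin the Atp5g1 share was 26.3% against 28.6%, with ranges of 25.1% to 28.1% and 28.0% to 29.3% that overlapped narrowly, and the Atp5g3 share was 44.6% against 41.3%, overlapping. The Atp5g2 share was 32.15% in wild type against 33.3% with vehicle and 29.1% against 30.1% with ivermectin, overlapping in each.
On the CPM scale Atp5g1 (gene at chr11:96072793-96075694) was at 261, 216, 269 and 237 in wild-type vehicle libraries and at 356, 280, 325 and 382 in those labelled knockout, without overlap. Its log2 difference was 0.45 ± 0.08 (SE, edgeR adjusted p = 8.34e-05) with vehicle and 0.39 ± 0.08 (adjusted p = 0.000272) with ivermectin. Atp5g2 differed by 0.24 ± 0.07 (edgeR adjusted p = 0.0180) and 0.30 ± 0.07 (adjusted p = 0.00151). Atp5g3 did not pass, at -0.05 ± 0.08 (edgeR adjusted p = 0.713) and 0.15 ± 0.07 (adjusted p = 0.129). The vehicle call of Atp5g2 was lost without any 1 of 4 libraries, wild-type vehicle replicates 2 and 4 and knockout-labelled vehicle replicates 3 and 4. With the length and GC offset Atp5g2 passed in neither comparison, at 0.080 (edgeR adjusted p = 0.506) and 0.084 (adjusted p = 0.432), and Atp5g3 was called lower with vehicle.

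Ivermectin against vehicle called no member in edgeR, neither in wild type, where 0.61% of all tested genes were called in either direction, nor in the line labelled knockout, where 0% were. DESeq2 also called none. At an unadjusted p of 0.05, 6 members passed in wild type (5.22% of all tested genes did) and 17 in the line labelled knockout (7.6%), where all 17 had higher values with ivermectin. The median log2 difference was 0.06 in wild type and 0.11 in the line labelled knockout, with 58 and 61 of 74 values above 0. In the line labelled knockout, other genes of up to 500 bases had a median of 0.15 and those of 500 to 750 bases 0.11. With an offset for length and GC content, added after seeing the data, the members' median there was 0.0071. The same classes in wild type had 0.087 and 0.035, and the members' median with the offset was 0.050. In wild type the smallest unadjusted p of complex I was that of Ndufb5, at 62.9 to 74.8 CPM with vehicle and 75.6 to 117 with ivermectin, a log2 difference of 0.39 ± 0.12 (SE, edgeR adjusted p = 0.314). Of complex V it was that of Atp5d, 189 to 202 CPM with vehicle and 215 to 234 with ivermectin, at 0.21 ± 0.08 (edgeR adjusted p = 0.658). The treatments did not overlap for these 2 genes, the only such members in wild type, where 1.4% of all tested genes had higher values without overlap. In the line labelled knockout these were Atp5a1 and Atp5g3 (1.89% of all tested genes). In the line labelled knockout, Cox7c had 0.24 ± 0.08, Uqcrh 0.26 ± 0.09, Ndufb11 0.21 ± 0.08 and Atp5g3 0.22 ± 0.07, each with an edgeR adjusted p of 0.595.
The interaction of line and treatment called no member in edgeR, where 0.222% of all tested genes were called, and 1 member, Ndufa10, at an unadjusted p of 0.05 (5.12% of all tested genes). DESeq2 called none. Ndufa10 was at 69.5, 92.1, 68.9 and 80.4 CPM in wild-type ivermectin libraries and at 95.4, 109, 79.7 and 99.0 in those labelled knockout, while the vehicle groups lay the other way round. The interaction was 0.43 ± 0.15 (SE, edgeR adjusted p = 0.654).

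Short transcripts as a class had higher values in the line labelled knockout, and the members are short. Their median transcript length was 655 bases, against 2920 bases for the other tested genes. Among 71 other genes of up to 500 bases the median log2 difference was 0.22 with vehicle and 0.26 with ivermectin. Among 5198 other genes of over 3000 bases it was -0.07 and -0.10. The 14 members of up to 500 bases had medians of 0.33 and 0.38, and the 29 of 500 to 750 bases had 0.17 and 0.27, against 0.19 and 0.26 for 245 other genes of that length. Across members, which are not independent replicates, Spearman's rho between length and log2 difference was -0.36 with vehicle and -0.40 with ivermectin, and -0.23 and -0.33 across the other genes. These points all share the same libraries.

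**Figure D3:**
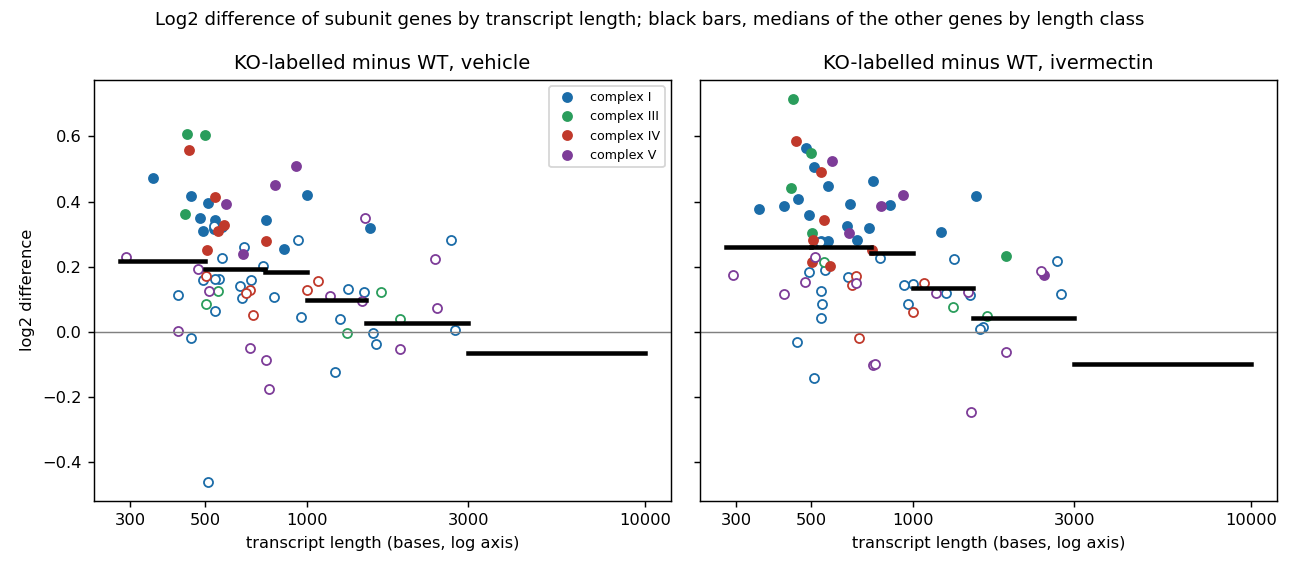
Log2 difference (y axis, libraries labelled knockout minus wild type) of each subunit gene against transcript length (x axis, bases, log axis), with vehicle at left and ivermectin at right. Filled points passed the adjusted p of 0.05, open points did not, and black bars are medians of the other tested genes in length classes, falling from 0.22 and 0.26 in the shortest class to -0.07 and -0.10 in the longest.

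Ribosomal protein genes, which are short as well, showed the same direction. Of 76 mitochondrial ribosomal protein genes, 11 were called higher with vehicle (14.5%, against 9.9% of all tested genes) and 34 with ivermectin (44.7%, against 14%), none lower, with medians of 0.21 and 0.30. Of 79 tested cytosolic ones, 37 and 50 were called higher, none lower, with medians of 0.21 and 0.25. With the length and GC offset the mitochondrial list had 9 higher and 1 lower with vehicle and 20 higher and none lower with ivermectin, with medians of 0.14 and 0.19 (all members had 0.068 and 0.021). The cytosolic list then had 24 higher and 5 lower with vehicle and 20 higher and 10 lower with ivermectin, with medians of 0.068 and 0.042. Library by library, the members' median stood close to that of the 316 other genes of up to 750 bases: from -0.21 to 0.05 in wild-type libraries and from -0.08 to 0.27 in those labelled knockout, against -0.22 to 0.03 and -0.13 to 0.31 for the other short genes. Knockout-labelled vehicle replicate 2 was low in all of these lists. The fragment length, inferred from RSEM's transcript lengths and effective lengths, was 195 to 217 bases in wild-type libraries and 202 to 230 in those labelled knockout. The groups overlapped.

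**Figure D4:**
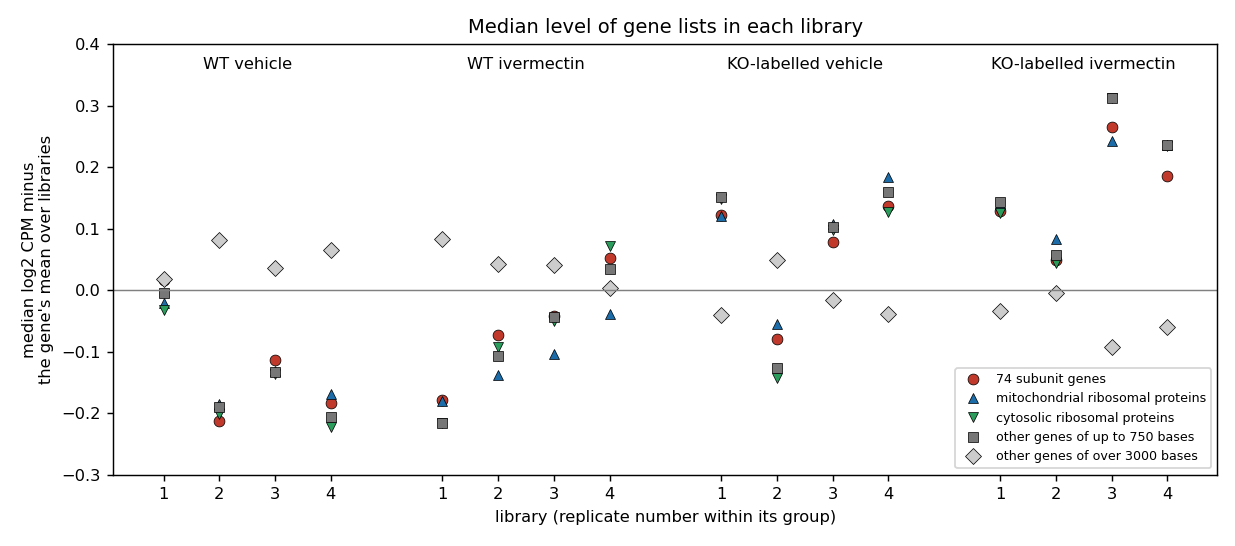
Median over genes of the log2 CPM minus each gene's mean over the 16 libraries (y axis) in each library (x axis, by group), for the 74 subunit genes and 4 other gene classes. The subunit genes, the ribosomal protein genes and the other short genes lie near each other in most libraries, and genes of over 3000 bases lie on the other side of 0 in most.

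With an offset for transcript length and GC content, fitted in each library on genes that are not members and added after seeing the data, fewer members were called higher and some were called lower. With vehicle 9 members (12.2%) were higher and 5 (6.76%) lower, against 10.8% and 9.97% of all tested genes. With ivermectin 14 (18.9%) were higher and 4 (5.41%) lower, against 14.1% and 11.5%. The members' median log2 difference was 0.068 with vehicle and 0.021 with ivermectin. The offset takes out any shift that follows length, whatever its source, and whether that shift arose in the cells or in library preparation was not tested.
By complex, the offset calls with vehicle were 2 higher and 1 lower of 37 in complex I, 2 and 0 of 8 in complex III, 2 and 0 of 12 in complex IV and 3 and 4 of 17 in complex V. With ivermectin they were 5 and 0, 3 and 0, 2 and 1, and 4 and 3 in the same order, so the low share of complex V was not seen with the offset.
Calls that ended with the offset included several described above. With vehicle these were Ndufa3 at 0.25 (edgeR adjusted p = 0.0691), Ndufs7 at 0.20 (adjusted p = 0.125) and Cox5b at 0.19 (adjusted p = 0.0592). With ivermectin Cox8a was at 0.12 (edgeR adjusted p = 0.139), Uqcrc2 at 0.19 (adjusted p = 0.0713), and Cox5b at -0.050 (adjusted p = 0.631), with its direction turned.
The members called lower with the offset had not been called without it. With vehicle they were Ndufs5 at -0.65 (edgeR adjusted p = 0.0114), whose counts are uncertain, Atp5g3 at -0.18 (adjusted p = 0.0255), Atp5e at -0.21 (adjusted p = 0.0389), Atp5o and Atp5j. With ivermectin they were Atp5b at -0.13 (edgeR adjusted p = 0.00939), Cox5a at -0.24 (adjusted p = 0.0249), Atp5o and Atp5j.
With the offset 8 members (10.8%) were called higher in each comparison, against 7.76% of all tested genes: Atp5d, Atp5g1, Atp5h, Cox6a1, Cox7c, Ndufs4, Uqcr10 and Uqcrq. With the offset Uqcr10 differed by 0.39 ± 0.09 (SE, edgeR adjusted p = 0.000553) with vehicle and 0.44 ± 0.08 (adjusted p = 1.94e-05) with ivermectin. Cox7c differed by 0.40 ± 0.06 (edgeR adjusted p = 5.58e-06) and 0.32 ± 0.06 (adjusted p = 2.84e-05). Cox6a1 differed by 0.22 ± 0.05 (edgeR adjusted p = 0.000284) and 0.26 ± 0.04 (adjusted p = 1.09e-05), and Atp5d by 0.39 ± 0.06 (adjusted p = 4.28e-06) and 0.28 ± 0.05 (adjusted p = 0.000130). The stalk genes Atp5o and Atp5j were lower in each comparison with the offset. Atp5o differed by -0.31 ± 0.07 (SE, edgeR adjusted p = 0.00108) and -0.31 ± 0.06 (adjusted p = 0.000373), and Atp5j by -0.22 ± 0.07 (adjusted p = 0.0227) and -0.30 ± 0.07 (adjusted p = 0.000826).

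Several of these members lie on chromosomes whose other genes differed in the same direction. Other tested genes on chromosome 11 (875 genes) had a median log2 difference of 0.22 with vehicle and 0.23 with ivermectin, and 29.8% and 37.9% of them were called higher. All 4 members on chromosome 11, Uqcrq, Uqcr10, Atp5g1 and Atp5h, were called higher in each comparison. On chromosome 16 (334 other genes) the median was -0.24 and -0.22, and 27.5% and 30.5% were called lower. Atp5o (gene at chr16:91925223-91931630) and Atp5j (gene at chr16:84827871-84835857) lie there, as does Ndufb4, and none of the 3 was called without the offset. The annotated range of Atp5j shares 967 bases with Gabpa, which codes for a regulator of respiratory genes, and the sources used here do not say whether counting used strand, so their counts may share reads. A protein-coding gene overlaps 13 of the 74 members in this way, Atp5d (Cbarp) and Uqcrq (Gdf9) among them. Less the offset median of the other genes of their own chromosome, Uqcr10 kept 0.17 with vehicle and 0.20 with ivermectin, Uqcrq 0.21 and 0.038, Atp5g1 0.11 and -0.06, Atp5h 0.01 and 0.03, Atp5o -0.10 and -0.10, and Atp5j -0.02 and -0.10. Cox7c on chromosome 13 kept 0.35 and 0.28, Cox6a1 on chromosome 5 kept 0.22 and 0.28, Atp5d on chromosome 10 kept 0.26 and 0.14, and Ndufs4 kept 0.28 and 0.30. Chromosome copy number was not measured here, and its part in these values was not tested.

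**Figure D5:**
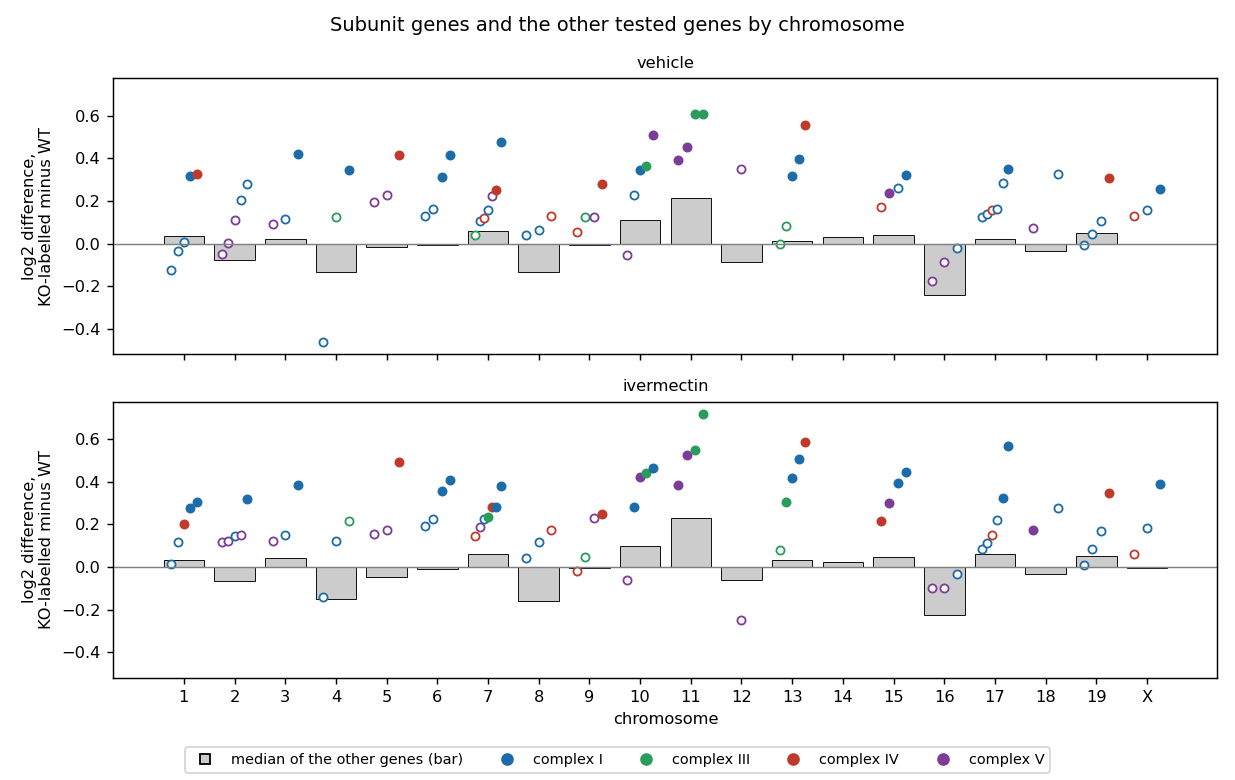
Log2 difference (y axis, libraries labelled knockout minus wild type) of the subunit genes (points, by complex; filled where adjusted p was under 0.05) and the median of the other tested genes (bars) on each chromosome (x axis), with vehicle above and ivermectin below. Chromosome 11 has the highest bar and 4 filled points, and chromosome 16 the lowest bar and 3 open points near or below 0.

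Of 11 other tested genes of the pathway, for complex II and electron carriers, 1 was called higher and 1 lower with vehicle (9.09% each, near the 9.9% and 10.8% of all tested genes), and 3 and 1 with ivermectin. Etfb, a subunit of the electron transfer flavoprotein that feeds electrons from fatty acid oxidation, was lower, with a log2 difference of -1.90 ± 0.19 (SE, edgeR adjusted p = 2.00e-09) and -1.77 ± 0.19 (adjusted p = 3.43e-09). Sdha, the flavoprotein of complex II, was higher by 0.29 ± 0.07 (edgeR adjusted p = 0.00139) and 0.23 ± 0.06 (adjusted p = 0.00548), and Cyc1, cytochrome c1 of complex III, by 0.28 ± 0.08 (adjusted p = 0.00463) with ivermectin. With the length and GC offset Cyc1 did not pass, at 0.15 (edgeR adjusted p = 0.102).
Assembly factors had calls in shares that can be read against all tested genes, of which 9.9% were higher and 10.8% lower with vehicle, and 14% and 13.9% with ivermectin. For complex I, 1 of 12 was called higher (Nubpl) and 1 lower (Tmem186) with vehicle, and 2 higher (Ndufaf2 and Acad9) with ivermectin. For complex III none of 3 was called. For complex IV, 2 of 16 were called higher with vehicle (Sco2 and Cox11) and 4 with ivermectin (Higd2a, Cox10, Cox11 and Cox19). With the length and GC offset the calls of Tmem186 (edgeR adjusted p = 0.0503), Sco2 (adjusted p = 0.0853), Higd2a (adjusted p = 0.187) and Cox19 (adjusted p = 0.257) ended. Those of Nubpl, Ndufaf2, Acad9, Cox10 and Cox11 stayed. Among 6 genes for complex V assembly and inhibition, Usmg5, a small protein bound to the synthase, was higher by 0.48 ± 0.12 (SE, edgeR adjusted p = 0.00291) and 0.56 ± 0.11 (adjusted p = 0.000144).
Of 19 tested regulators of nuclear mitochondrial genes, none was called higher and 2 lower with vehicle, and 2 higher and 2 lower with ivermectin. A count of 2 is 10.5% of this list, near or below the share of all tested genes. Gabpa, the DNA-binding subunit of an ETS factor of respiratory genes, was lower by -0.57 ± 0.12 (SE, edgeR adjusted p = 0.000608) and -0.37 ± 0.11 (adjusted p = 0.0150) on the log2 scale, and its partner gene Gabpb2 by -0.33 ± 0.10 (adjusted p = 0.0194) and -0.32 ± 0.10 (adjusted p = 0.0132). Gabpa lies on chromosome 16, where the other genes had lower values too, and with the length and GC offset its difference was -0.47 (edgeR adjusted p = 0.00337) with vehicle and -0.24 (adjusted p = 0.113) with ivermectin. Gabpb2 passed in neither comparison with the offset, at -0.19 (edgeR adjusted p = 0.177) and -0.11 (adjusted p = 0.390). Tfam, which packages and transcribes the mitochondrial genome, and Polrmt, its RNA polymerase, were higher with ivermectin, by 0.27 ± 0.10 (edgeR adjusted p = 0.0489) and 0.46 ± 0.15 (adjusted p = 0.0211). Both still passed there with the offset, at 0.36 (edgeR adjusted p = 0.00667) and 0.56 (adjusted p = 0.00487). Of 22 carriers and inner membrane genes, 8 (36.4%) were called higher and 2 (9.09%) lower with vehicle, against 9.9% and 10.8% of all tested genes. With ivermectin 11 (50%) were called higher and 2 (9.09%) lower, against 14% and 13.9%. With the length and GC offset 8 were higher and 3 lower with vehicle, and 10 and 2 with ivermectin, with medians of 0.16 and 0.15. Ucp2, an uncoupling protein of β-cells, was lower by -1.47 ± 0.15 (edgeR adjusted p = 1.16e-09) and -1.94 ± 0.14 (adjusted p = 5.14e-13). Slc25a13, an aspartate-glutamate carrier, was higher by 1.29 ± 0.31 (edgeR adjusted p = 0.00238) and 1.77 ± 0.31 (adjusted p = 5.05e-05). Its wild-type level was low, at a mean of 6.89 CPM with vehicle and 4.41 with ivermectin.

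Alb, a hepatocyte gene, was at 328 to 923 CPM in wild-type vehicle libraries, 57.7 to 172 in wild-type ivermectin, 17.1 to 52.3 in knockout-labelled vehicle and 28.0 to 144 in knockout-labelled ivermectin. It differed with the vehicle comparison of the lines, and with Alb as a covariate 9 members were called higher there instead of 25, with a median log2 difference of 0.33 instead of 0.16 and wider errors. The part of Alb, or of hepatocyte RNA, in the difference between the lines was not tested.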

How the data were processed

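Per the labels' protocols, RNA was poly(A)-selected, prepared with a strand-keeping kit and read from both ends on an Illumina NextSeq 500. Per the submitters' processing notes, the tools were bcl2fastq, STAR 2.7.2b, RSEM 1.3.3 and DESeq2 1.32.0, with the mm10 build. The authors deposited RSEM expected counts and TPM for each library, per the file headers, with transcript lengths, and a table of raw counts equal to the expected counts rounded down. The raw counts set membership only. Human single-cell files were not analysed here. Expected counts were rounded to whole numbers and tested in R 4.3.3 with edgeR 4.0.16: filterByExpr (minimum count 10, minimum total 15), TMM factors, a quasi-likelihood F test with 1 mean per group over 16 libraries, and Benjamini-Hochberg adjustment over 10822 genes at 0.05. SE was the log2 difference divided by the square root of F. CPM are TMM-scaled; library medians use log2 CPM with a prior count of 2. Depth was 893288 to 2013475 counts, and replicate pairs differed by 1.17 to 7.36 times counting noise (chi-squared per degree of freedom).

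Named genes were: in each complex and line comparison the 3 largest called differences without overlap; the highest TPM; the smallest p for ivermectin and the interaction; isoform pairs; and up to 4 called genes per pathway list. Others were chosen after their values were seen, among them Ndufs4, Ndufs5, Atp5h, Atp5j, Atp5o, Atp5b and the genes whose upstream bases are printed. The members and lists were chosen with earlier results of these data known. Alternatives were DESeq2 1.42.0, other factors, filters and fits, a replicate block, the raw table, an effective length offset, Alb as a covariate, thinning, a 1.2-fold threshold and leaving out each library. A length offset, a length and GC offset (natural spline, 4 degrees of freedom) and the Ndufs5 sum were added after seeing the data. Scripts were tested on simulated data. RefSeq sequences and positions are of GRCm38.p6; in genes with several listed starts the first was searched. The values of 1 member, which enters the counts and sums, are not reported here.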

Additional observations from a re-analysis of the deposited data

Results flagged for a closer look

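In 124 groups of 4 libraries examined for named members, 4 held a library far from the other 3 by Dixon's criterion at the 95% level; chance gives about 1 in 20, or 6.2. Atp5g2, a c-ring gene, was at 181 CPM in wild-type ivermectin replicate 4 and at 207 to 210 in the others. Atp5h, of the peripheral stalk, was at 333 CPM in the same library and at 249 to 262 in the others. That library also had the highest share of ribosomal Rn45s reads, 2.99% against 0.139% to 0.601% elsewhere, and the part of this in both values was not tested. Ndufa7, of complex I, was at 97.8 CPM in knockout-labelled vehicle replicate 2 against 120 to 123 in the others, and Uqcr11, of complex III, at 147 against 188 to 192. The same library had the lowest members' median of the libraries labelled knockout, -0.08.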

How the results depend on the processing

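Of the differences between the lines recomputed under every setting, those of 4 genes changed direction under some setting. Cox5b (-0.050) and Cox6c (-0.054) did so too in the ivermectin comparison with the length and GC offset. With the length offset and with the length and GC offset, Ndufb8 was at -0.038 and -0.059 (vehicle) and -0.048 and -0.056 (ivermectin), and in the ivermectin comparison Atp5j2 was at -0.10 and -0.13 and Atp5g3 at -0.059 and -0.082. Atp5g3 with vehicle was at 0.0065 with Alb as a covariate and between -0.078 and 0.0087 without single libraries, and Ndufs5 with vehicle was at 0.25 with Alb. The count of members called with vehicle was 15 in DESeq2, 9 with Alb, 5 against a 1.2-fold threshold, 12 with the length offset, 14 with the length and GC offset, and 14 to 32 without single libraries; the median was 0.33 with Alb. With ivermectin the count was 9 against the 1.2-fold threshold and 18 with either offset, and the median 0.031 and 0.021. The ivermectin median in the line labelled knockout was 0.0071 with the length and GC offset, and the interaction median -0.0808 with Alb. The causes were not tested. The replicate block gave 26 calls (25 higher, 1 lower) with vehicle, 35 with ivermectin and 0 for the drug; same-numbered libraries deviated together weakly (r from -0.06 to 0.15), and 6 of 16 correlated best with their own number, so the numbers were not taken to pair libraries. Members at a mean of 10 to 50 raw counts have wide errors, and a total of 893288 counts limits the wild-type vehicle group most.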
